A study of Homo sapiens with 23 samples.

Results

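The bile acid sensing and gut-liver FGF19 axis was followed through 10 genes, picked by their symbols, out of 60564 genes listed in each library. They were NR1H4 and NR0B2 (nuclear receptors), FGF19 (the hormone), FGFR4 and KLB (its receptor), SLC51A, SLC51B, SLC10A1 and SLC10A2 (membrane transporters) and FABP6 (a bile acid carrier inside the cell). Each symbol matched 1 row in all 23 libraries. The levels of these genes placed the hormone message in Caco-2 cells, the higher sensor, receptor and co-receptor messages in HepG2 cells, and the transporter messages in an order that differed between the lines.

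Bile acids are made from cholesterol in hepatocytes, secreted into the gut and taken back up in the ileum. In an ileal enterocyte they enter through the sodium-dependent transporter ASBT (SLC10A2), are carried by the ileal bile acid binding protein (FABP6), activate the nuclear receptor FXR (NR1H4) and leave at the basolateral side through the heterodimer of OSTα (SLC51A) and OSTβ (SLC51B). FXR induces FGF19, which travels to the liver, binds FGFR4 with the co-receptor β-Klotho (KLB) and lowers CYP7A1, the rate-limiting enzyme of bile acid synthesis. Hepatocytes take bile acids back from blood through NTCP (SLC10A1), and their own FXR induces the small heterodimer partner SHP (NR0B2), a repressor of CYP7A1.

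The mRNA-seq covered 11 libraries of Caco-2 cells, an established colorectal adenocarcinoma line used as a model of the intestinal epithelium, and 12 of HepG2 cells, an established hepatocellular carcinoma line used as a model of hepatocytes. Each line was mono-cultured, or co-cultured with the other in a microfluidic gut/liver chip (the iGLC platform) with medium circulating between their chambers. Both cultures were kept with free fatty acids (FFAs, 1 mM in all, 1 part palmitic acid to 2 parts oleic acid) or without them (control) for 1 day. The labels give 0.5% serum in the medium during that day, whereas the methods of the study describe medium without serum. Of the 8 groups, co-cultured control Caco-2 cells had 2 libraries and every other group had 3. No bile acid treatment is among the conditions, and both lines are single tumour-derived lines rather than primary tissue. The labels do not tie the libraries of a group to separate chips, so p-values measure the spread between libraries, which may be technical in part.

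Expression is given as TPM (transcript abundance scaled for length and for the library's total), so levels of different genes are compared per length. TPM hold no read counts, so the depth is unknown, and "listed at 0" is written where a table gives 0 TPM. The tables held 19259 to 23689 genes with a value above 0. The extraction note in the labels names muscle precursor cells rather than either line; MYOD1 was listed at 0 in all 23 libraries, and MYOG was at most 0.03 TPM. The lines matched most of their other labels. CDH17, an intestinal cadherin, was at 354 to 480 TPM in Caco-2 cells and 0.05 to 2.75 TPM in HepG2 cells, whereas ALB (albumin) was at 321 to 769 TPM in Caco-2 cells and at least 20460 TPM in HepG2 cells. The summed level of 10 hepatocyte markers was 3222 to 5258 TPM in Caco-2 cells and 32161 to 50166 TPM in HepG2 cells, and all 10 averaged at least 1 TPM in both lines. The summed level of 10 intestinal markers was 1234 to 1558 TPM in Caco-2 cells and 167 to 261 TPM in HepG2 cells. The intestinal factor CDX1 was at or near 0 in both lines, and FABP2, the intestinal fatty acid binding protein, was listed at 0 in 9 of 11 Caco-2 libraries.

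Some libraries stood apart from the others of their line. The 4 HepG2 libraries with replicate number 3 lay below all 8 others for 971 of 14255 genes and above them for 700, against 55 and 54 genes for number 1 and 61 and 88 for number 2. The 3 Caco-2 libraries with number 3 lay below all 8 others for 178 of 15081 genes and above them for 280. The Caco-2 counts were 125 and 41 for number 1 and 18 and 19 for number 2. In 2 co-cultured Caco-2 libraries, genes that mark HepG2 cells were raised. The summed level of 34 such markers was 2.26% of the HepG2 level in co-cultured FFAs replicate 1 and 0.899% in co-cultured control replicate 1, against 0.0962% to 0.264% in the other 9 Caco-2 libraries. The sum of 63 Caco-2 markers in HepG2 libraries was 0.128% to 0.616% of the Caco-2 level. Some results that turn on these libraries are given with and without them.

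For regulatory context, the 250 bases before the start site of 3 transporter genes are printed, because SLC51A and SLC51B encode the subunits of a single exporter yet had opposite line differences, and SLC10A1 was found in the line named for the gut. The sequences are from RefSeq on GRCh38.p14, read 5′ to 3′ on the gene's strand, and capitals mark AGGTCA, the core hexamer bound by many nuclear receptors. The windows are chr3:196216284-196216533 (SLC51A, plus strand), chr15:65045137-65045386 (SLC51B, plus strand) and chr14:69797242-69797491 (SLC10A1, minus strand).
SLC51A: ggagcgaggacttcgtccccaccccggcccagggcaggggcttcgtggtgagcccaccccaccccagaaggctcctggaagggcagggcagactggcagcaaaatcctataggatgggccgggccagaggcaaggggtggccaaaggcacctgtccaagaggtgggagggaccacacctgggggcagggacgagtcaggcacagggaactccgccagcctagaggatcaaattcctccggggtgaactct
SLC51B: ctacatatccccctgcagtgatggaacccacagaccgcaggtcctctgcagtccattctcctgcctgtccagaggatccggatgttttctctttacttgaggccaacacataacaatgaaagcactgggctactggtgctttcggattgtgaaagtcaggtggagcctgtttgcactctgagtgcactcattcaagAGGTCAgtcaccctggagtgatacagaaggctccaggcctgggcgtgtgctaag
SLC10A1: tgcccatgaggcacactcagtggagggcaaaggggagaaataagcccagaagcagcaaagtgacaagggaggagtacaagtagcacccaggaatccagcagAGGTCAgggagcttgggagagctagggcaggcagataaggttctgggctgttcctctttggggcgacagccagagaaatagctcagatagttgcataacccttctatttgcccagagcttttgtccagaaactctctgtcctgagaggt
SLC51B held the hexamer on its own strand, with its first base 54 bases before the start, and SLC10A1 held it 149 bases before the start, while these letters are not in the SLC51A window. NR1H4 had it on the opposite strand, 230 bases before the start, in a window that also lies inside the annotated gene. On either strand it occurred in 12.1% of the 35116 promoters of the same length in the table. A perfect inverted repeat of the hexamer with 1 free base between is the kind of element FXR binds with its partner. It was found in 0 of these 35116 windows, so its absence does not set the printed windows apart. Imperfect repeats were not searched for. A match is a run of letters and not a shown binding site. Of the 10 genes, 8 had a promoter in the table; FGF19 and NR0B2 did not.

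FGF19, the hormone that carries the signal from gut to liver (ENSG00000162344, chr11:69698238-69704022, minus strand, GENCODE v44 on GRCh38), was found at low levels in Caco-2 cells and close to 0 in HepG2 cells. In Caco-2 cells it was at 3.17 and 7.87 TPM in the co-cultured control libraries and at 2.07, 2.01 and 7.42 TPM in the co-cultured FFAs libraries. In mono-cultured Caco-2 cells it was at 1.88, 1.29 and 3.93 TPM without FFAs and at 1.00, 1.07 and 3.76 TPM with FFAs. In HepG2 cells its lowest, median and highest values were 0, 0.105 and 0.380 TPM, and 2 of 12 libraries were listed at 0. The lines did not overlap, with HepG2 cells below Caco-2 cells, which held for 28.6% of the 16495 genes tested (42.7% in either direction). Within each FFAs or mono-cultured Caco-2 group the library with replicate number 3 was the highest, and in the co-cultured control group, which has no number 3, it was replicate 2. By group mean, FGF19 fell in the order co-cultured control, co-cultured FFAs, mono-cultured control and mono-cultured FFAs Caco-2 cells, and neighbours in this order overlapped. The difference of HepG2 minus Caco-2 cells was -1.78 on the log2(TPM + 1) scale (SE 0.20, limma with Benjamini-Hochberg adjustment over 16495 genes, adjusted p = 9.04e-08). It was -1.43 without the 7 libraries numbered 3 of both lines. FGF19 passed the filter on low values through Caco-2 cells alone, so a difference had to be seen. In bulk TPM, fewer expressing cells and less message per cell cannot be told apart.

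KL (α-Klotho, the co-receptor of another hormone of this family) was highest in the same 4 Caco-2 libraries, at 2.55 to 2.82 TPM, against 0.67 to 1.32 TPM in the other 7. The 3 Caco-2 libraries numbered 3 lay above all others for 280 of 15081 genes, so such a pattern was not particular to KL. Genes highest in all 4 libraries were not counted. The genes whose 8 group means were most like those of FGF19, by the root mean square difference of centred mean log2(TPM + 1), were SMOC2 (0.0797), SERTAD1 (0.148), RAPH1 (0.149), RPLP1P6 (0.154) and CITED2 (0.155). This measure is dominated by the line difference that these genes have in common with FGF19.

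FGFR4, the receptor tyrosine kinase through which FGF19 acts on the liver (ENSG00000160867, chr5:177086905-177098144, plus strand), had the highest mean level of the axis genes in either line. Its lowest, median and highest levels were 123, 158 and 176 TPM in Caco-2 cells and 205, 240 and 263 TPM in HepG2 cells. No Caco-2 library reached the lowest HepG2 library, a separation found for 14.1% of the genes tested. The difference was 0.63 on the log2(TPM + 1) scale (SE 0.057, limma adjusted p = 4.05e-09), so the receptor message was present at high levels in both lines.

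KLB, the co-receptor without which FGFR4 binds FGF19 poorly (ENSG00000134962, chr4:39406930-39451533, plus strand), separated the lines more widely. In mono-cultured HepG2 cells KLB was at 55.8, 66.1 and 66.1 TPM without FFAs and at 74.9, 77.5 and 94.6 TPM with FFAs. In co-cultured HepG2 cells it was at 42.3, 45.9 and 40.9 TPM without FFAs and at 47.6, 42.0 and 69.5 TPM with FFAs. In Caco-2 cells the lowest, median and highest values were 3.87, 8.48 and 12.5 TPM, all below the lowest HepG2 library. The line difference was 2.72 (log2(TPM + 1), SE 0.14, limma adjusted p = 5.16e-13). The ratio of FGFR4 to KLB level was 12.3 to 31.9 in Caco-2 libraries (median 17.9) and 2.78 to 6.14 in HepG2 libraries (median 3.62). The ratios of the lines did not overlap, so KLB was the scarcer message of the receptor pair in both lines and by more in Caco-2 cells.

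NR1H4, which encodes the bile acid sensor FXR (ENSG00000012504, chr12:100473708-100564414, plus strand), was a HepG2 message. In mono-cultured HepG2 cells it was at 32.4, 41.2 and 34.9 TPM without FFAs and at 25.04, 30.8 and 42.6 TPM with FFAs, and in co-cultured HepG2 cells at 47.5, 42.6 and 42.3 TPM without FFAs and 24.1, 57.5 and 52.0 TPM with FFAs. In Caco-2 cells it stayed at 0.02 to 0.29 TPM in 9 of 11 libraries. The exceptions were co-cultured FFAs replicate 1, at 1.03 TPM, and replicate 2, at 0.70 TPM. The HepG2 mean of 39.4 TPM multiplied by the share of HepG2 markers in those libraries gave 0.892 TPM for replicate 1 and 0.104 TPM for replicate 2. The part of HepG2 RNA in these values was not tested. The line difference was 4.95 (log2(TPM + 1), SE 0.13, limma adjusted p = 1.34e-17) and was 5.00 without the 2 Caco-2 libraries in which HepG2 markers were highest. NR1H4 passed the filter through HepG2 cells alone. The line in which FGF19 was found was thus the line in which the message of its known inducer was at or below 1.03 TPM.

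NR0B2, which encodes SHP, the repressor that FXR induces (ENSG00000131910, chr1:26911489-26913975, minus strand), was present in both lines and far higher in HepG2 cells. In mono-cultured HepG2 cells it was at 182, 388 and 84.3 TPM without FFAs and at 163, 396 and 73.2 TPM with FFAs. In co-cultured HepG2 cells it was at 148, 219 and 59.5 TPM without FFAs and at 134, 244 and 73.4 TPM with FFAs. In each of these groups replicate 2 was the highest and replicate 3 the lowest, so the spread inside a group was wider than the distance between group means, and neighbouring HepG2 groups overlapped. In Caco-2 cells NR0B2 was at 2.14 to 9.25 TPM. The line difference was 4.60 (log2(TPM + 1), SE 0.30, limma adjusted p = 2.34e-11), and it was 5.01 without the 7 libraries numbered 3.

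**Figure D1:**
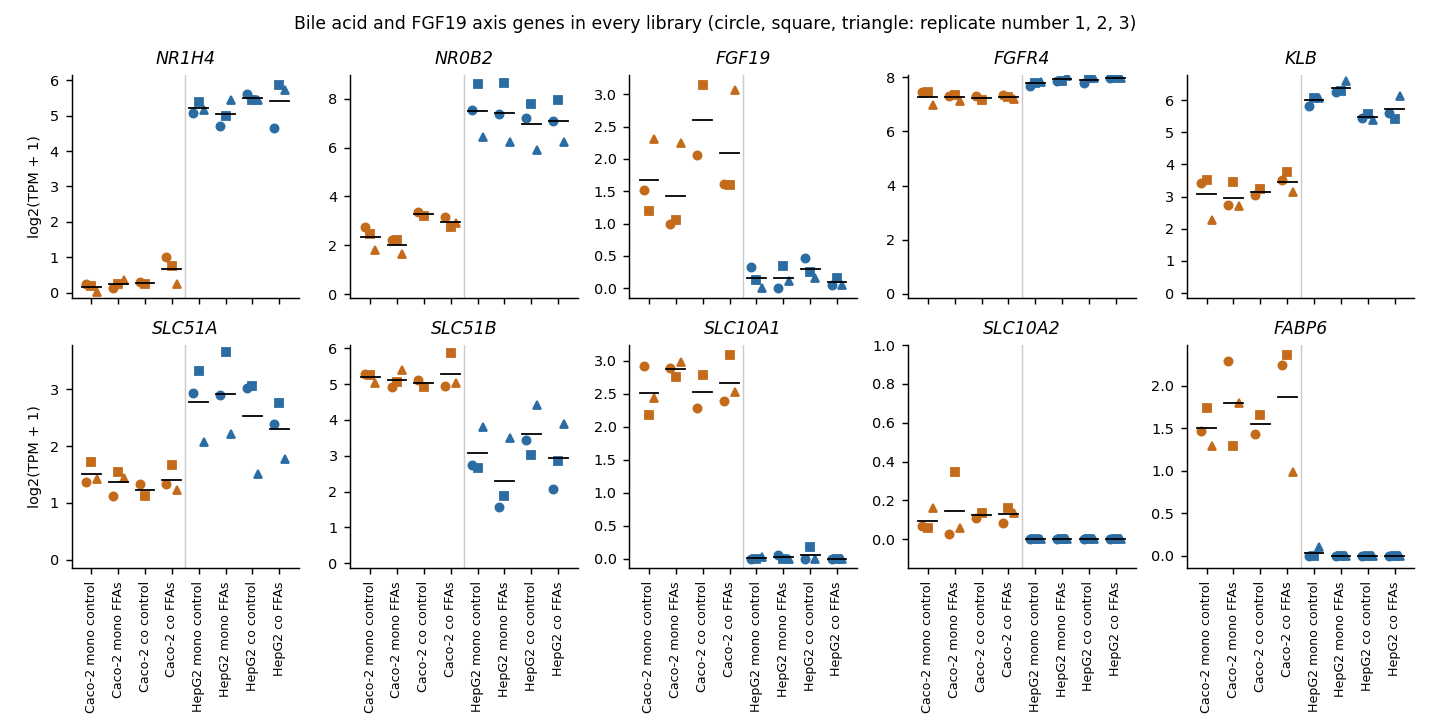
Levels of the 10 genes as log2(TPM + 1) in all 23 libraries, 1 panel per gene, each with its own vertical axis. Orange marks Caco-2 and blue HepG2 libraries, the shape gives the replicate number, and a black bar is the group mean. NR1H4, NR0B2, FGFR4 and KLB lie higher in HepG2 libraries, FGF19, SLC51B, SLC10A1 and FABP6 higher in Caco-2 libraries, and SLC10A2 stays at or below 0.270 TPM.

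The exporter subunits SLC51A (ENSG00000163959, chr3:196211487-196243178, plus strand) and SLC51B (ENSG00000186198, chr15:65045387-65053397, plus strand), which work only as a heterodimer, went in opposite directions between the lines. SLC51A had a lowest, median and highest level of 1.17, 1.58 and 2.29 TPM in Caco-2 cells. In mono-cultured HepG2 cells SLC51A was at 6.67, 8.97 and 3.21 TPM without FFAs and at 6.43, 11.5 and 3.63 TPM with FFAs, and in co-cultured HepG2 cells at 7.12, 7.33 and 1.83 TPM without FFAs and at 4.26, 5.76 and 2.40 TPM with FFAs. Co-cultured control replicate 3 was the single HepG2 library inside the Caco-2 range. The line difference of SLC51A was 1.26 (log2(TPM + 1), SE 0.21, limma adjusted p = 1.52e-05).

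SLC51B had a lowest, median and highest level of 29.1, 32.1 and 57.8 TPM in Caco-2 cells. In mono-cultured HepG2 cells SLC51B was at 5.73, 5.28 and 12.9 TPM without FFAs and at 1.94, 2.65 and 10.2 TPM with FFAs, and in co-cultured HepG2 cells at 9.77, 7.05 and 20.2 TPM without FFAs and at 3.20, 6.17 and 13.7 TPM with FFAs. All HepG2 libraries lay below all Caco-2 libraries. The difference of HepG2 minus Caco-2 cells was -2.18 (log2(TPM + 1), SE 0.25, limma adjusted p = 1.18e-07).

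The level of SLC51B over that of SLC51A was 16.3 to 26.7 in Caco-2 cells (median 23.9) and 0.230 to 11.1 in HepG2 cells (median 1.02). The scarcer subunit was SLC51A in all Caco-2 libraries. In HepG2 cells the libraries numbered 3 had the lowest SLC51A and the highest SLC51B of their group, and leaving out all 7 libraries numbered 3 moved the line differences to 1.60 for SLC51A and -2.65 for SLC51B. Exons of both genes overlap a gene on the opposite strand in GENCODE v44, and the kit is not described as keeping strand, so reads in the overlaps cannot be told apart. PCYT1A, which overlaps SLC51A, was at 28.9 to 40.6 TPM in Caco-2 and 16.1 to 23.5 TPM in HepG2 cells. RASL12 (chr15:65053337-65076690) overlaps only the end of SLC51B, whose last base is at 65053397. RASL12 was at 21.1 to 35.1 TPM in Caco-2 and 0.03 to 0.49 TPM in HepG2 cells, and its part in the SLC51B values was not tested.

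**Figure D2:**
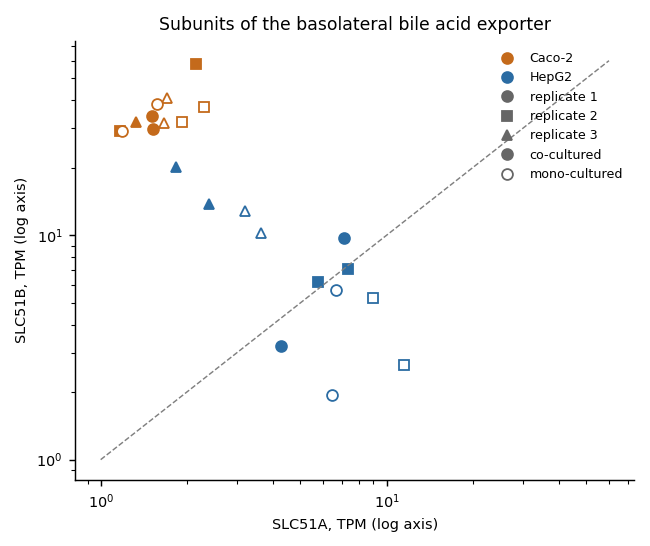
SLC51B level against SLC51A level in TPM, both on log axes, 1 point per library; colour gives the line, shape the replicate number, filled points co-cultured and open points mono-cultured cells, and the dashed line marks equal levels. Caco-2 libraries cluster at 1.17 to 2.29 TPM of SLC51A and at least 29.1 TPM of SLC51B, and the HepG2 libraries numbered 3 lie nearest to them.

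The uptake transporter of hepatocytes was found in Caco-2 cells, and that of the ileum was close to 0 in both lines. SLC10A1 (NTCP, the hepatocyte uptake transporter; ENSG00000100652, chr14:69775416-69797241, minus strand) was found in all 11 Caco-2 libraries, with a lowest, median and highest level of 3.51, 5.72 and 7.46 TPM. In HepG2 cells SLC10A1 was listed at 0 in 9 of 12 libraries and reached at most 0.130 TPM. The difference of HepG2 minus Caco-2 cells was -2.62 (log2(TPM + 1), SE 0.10, limma adjusted p = 4.43e-15), and the gene passed the filter through Caco-2 cells alone. No other gene of GENCODE v44 overlaps it. With a pseudocount of 0.1 in place of 1, the SLC10A1 difference was -5.57, because the added constant weighs on a gene near 0.

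SLC10A2 (ASBT, the ileal uptake transporter; ENSG00000125255, chr13:103043998-103066417, minus strand) was at 0.02 to 0.27 TPM in Caco-2 cells and listed at 0 in all 12 HepG2 libraries. It did not pass the filter in either line and was not tested. FABP6, the ileal bile acid binding protein (ENSG00000170231, chr5:160187367-160238735, plus strand), had a lowest, median and highest level of 0.98, 2.15 and 4.13 TPM in Caco-2 cells. In HepG2 cells it was listed at 0 in 11 of 12 libraries and at 0.07 TPM in mono-cultured control replicate 3. The FABP6 difference was -1.67 (log2(TPM + 1), SE 0.14, limma adjusted p = 1.63e-09), and this gene also passed the filter through Caco-2 cells alone. FABP6-AS1, whose exons overlap it on the opposite strand, was at 0.16 to 0.75 TPM in Caco-2 cells and listed at 0 in HepG2 cells.

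Of the 10 genes, 5 passed the filter in both lines, and of these NR0B2, FGFR4, KLB and SLC51A were higher in HepG2 cells and SLC51B was lower. Among all 16495 genes tested, 79% passed the limma threshold between the lines, 29.2% higher and 49.8% lower in HepG2 cells, so a call by itself sets none of these genes apart. The median of all genes was -0.24 on the log2(TPM + 1) scale, and it was -0.05 with median-of-ratios scaling and 0.02 with quantile normalization. The split of calls moved with it, from 4814 higher and 8216 lower to 6091 and 6728 with median-of-ratios scaling and 6517 and 6317 with quantile normalization. The 5 genes that passed in both lines kept their direction and their call under both scalings.

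**Figure D3:**
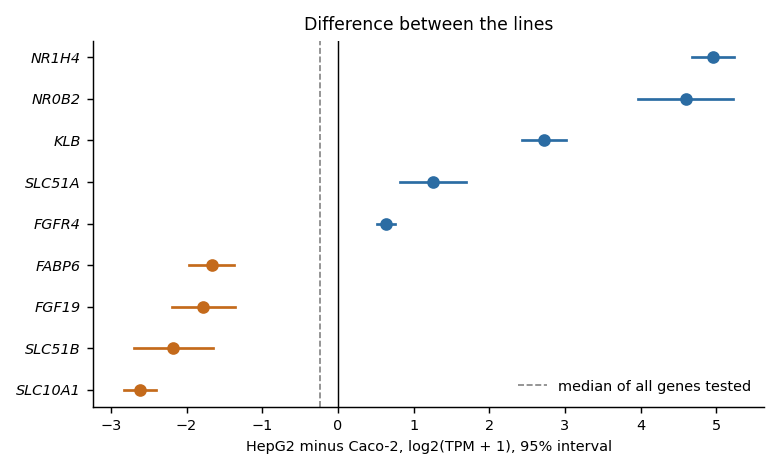
Difference of HepG2 minus Caco-2 cells in log2(TPM + 1) for the 9 genes tested, with 95% intervals from limma; the dashed line is the median of all genes tested. Blue points are higher in HepG2 cells (from 0.63 for FGFR4 to 4.95 for NR1H4) and orange points higher in Caco-2 cells (from -1.67 for FABP6 to -2.62 for SLC10A1).

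The enzymes that make bile acids were mostly higher in HepG2 cells. Of 13 listed, 12 were tested, and 10 were higher and 2 lower in HepG2 cells, against 29.2% and 49.8% of all genes tested. BAAT, CYP7A1, CYP8B1 and AKR1C4 passed the filter through HepG2 cells alone, so their direction was set by it, and of the 8 that passed in both lines 6 were higher and 2 lower. The genes with the smallest adjusted p among the higher ones were HSD3B7 (3.34 on the log2(TPM + 1) scale), CYP27A1 (1.90), BAAT (1.91) and CYP8B1 (1.58), which encode enzymes of sterol ring modification, side-chain oxidation, amidation and 12α-hydroxylation. AMACR (-3.56), a racemase of side-chain shortening, was lower. SCP2 (-0.27), a peroxisomal thiolase and sterol carrier, was also called lower, but lay near the median of all genes tested (-0.24). CYP7A1, the target at the end of the axis, was at most 0.20 TPM in Caco-2 cells. In HepG2 cells CYP7A1 was at 11.9, 16.2 and 0.53 TPM in mono-cultured control and at 25.6, 22.0 and 1.01 TPM in mono-cultured FFAs libraries. In co-cultured HepG2 cells it was at 5.68, 11.98 and 0.16 TPM without FFAs and at 13.2, 6.70 and 0.36 TPM with FFAs. The libraries numbered 3, in which NR0B2 and SLC51A were lowest, were also the lowest for CYP7A1 in every group, and its line difference was 2.62 (SE 0.52, limma adjusted p = 0.000139) and 3.68 without the 7 libraries numbered 3 (SE 0.16, limma adjusted p = 4.95e-10).

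Of 10 other bile acid transporters, 7 were tested, and 2 were higher and 5 lower in HepG2 cells, against 29.2% and 49.8% of all genes tested. Of the 5 that passed the filter in both lines, 1 was higher and 4 were lower; ABCB4 passed through HepG2 and SLCO1A2 through Caco-2 cells alone. ABCB4, the phospholipid exporter of the canaliculus (2.94), and ABCC2, a canalicular conjugate exporter (0.48), were higher. SLCO2B1 (-5.06) and SLCO1A2 (-1.64), organic anion uptake carriers, ABCC4 (-1.94), a basolateral exporter, and ATP8B1 (-2.30), a canalicular phospholipid flippase, were lower. ABCB11, the canalicular bile salt export pump and a direct target of FXR, was listed at 0 in 10 of 11 Caco-2 and 11 of 12 HepG2 libraries and reached 0.03 TPM at most. SLCO1B1, a hepatocyte uptake carrier, was listed at 0 in 8 of 11 Caco-2 and 9 of 12 HepG2 libraries.

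Of 12 further FXR targets, 11 were tested, and 9 were higher and 2 lower in HepG2 cells, against 29.2% and 49.8% of all genes tested. ABCB4, BAAT and FETUB passed the filter through HepG2 cells alone, and of the 8 that passed in both lines 6 were higher and 2 lower. Without the 7 libraries numbered 3, FETUB was at 0.33 and was not called (limma adjusted p = 0.0802). ABCB4, ABCC2, SLC27A5 and BAAT are also counted among the transporters or the synthesis enzymes. APOC2, an activator of lipoprotein lipase (7.81), UGT2B4, which glucuronidates bile acids (3.48), ABCB4 (2.94) and BAAT (1.91) had the smallest adjusted p among the higher ones. KNG1 (-3.52) and PLTP (-2.59), secreted plasma proteins, were lower in HepG2 cells.

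Of 7 partners and other bile acid receptors, 6 were tested, and 1 was higher and 3 lower in HepG2 cells. Among all genes tested, 29.2% were higher and 49.8% lower. VDR passed the filter through Caco-2 cells alone. NR1I2, the xenobiotic receptor PXR (3.40), was higher. VDR, the vitamin D receptor, which also binds lithocholic acid (-3.75), NR5A2, a CYP7A1 activator (-1.90), and HNF4A, a hepatic and enteric transcription factor (-0.38), were lower. Without the 7 libraries numbered 3, NR5A2 was at -1.20 and HNF4A at -0.23. The median of all genes tested in all libraries was -0.24. RXRA, the partner with which FXR binds DNA, was at 14.0 to 18.8 TPM in Caco-2 and 12.5 to 17.9 TPM in HepG2 cells, with a difference of -0.05 (SE 0.071, limma adjusted p = 0.488). GPBAR1, the cell-surface bile acid receptor TGR5, was at most 0.70 TPM and was not tested.

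Among FGF receptors and hormone-like FGFs, FGFR2 was the gene most different between the lines, at 191 to 349 TPM in Caco-2 and 0.24 to 2.19 TPM in HepG2 cells (-7.27). FGFR1 was higher in HepG2 cells (2.61), KL was lower (-1.28), and FGFR3, with a difference of 0.10, did not pass (limma adjusted p = 0.548). With FGF19, FGFR4 and KLB counted in, 7 of the 9 genes of this list were tested, 3 higher and 3 lower; KL and FGF19 passed the filter through Caco-2 cells alone. FGF21 was at most 1.05 TPM and FGF23 at most 0.18 TPM, and neither was tested. Of 10 genes that carry or respond to the FGF signal, 5 were higher and 3 lower in HepG2 cells. For both FGF lists the shares over all genes tested were 29.2% higher and 49.8% lower. ETV5 (2.68), ETV4 (2.90) and DUSP6 (1.38), response genes of the ERK pathway, were among the higher ones. FRS2 (-2.51), the adaptor that docks on FGF receptors, SPRY2 (-1.31), also a response gene of this pathway, and PTPN11 (-0.43) were lower.

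**Figure D4:**
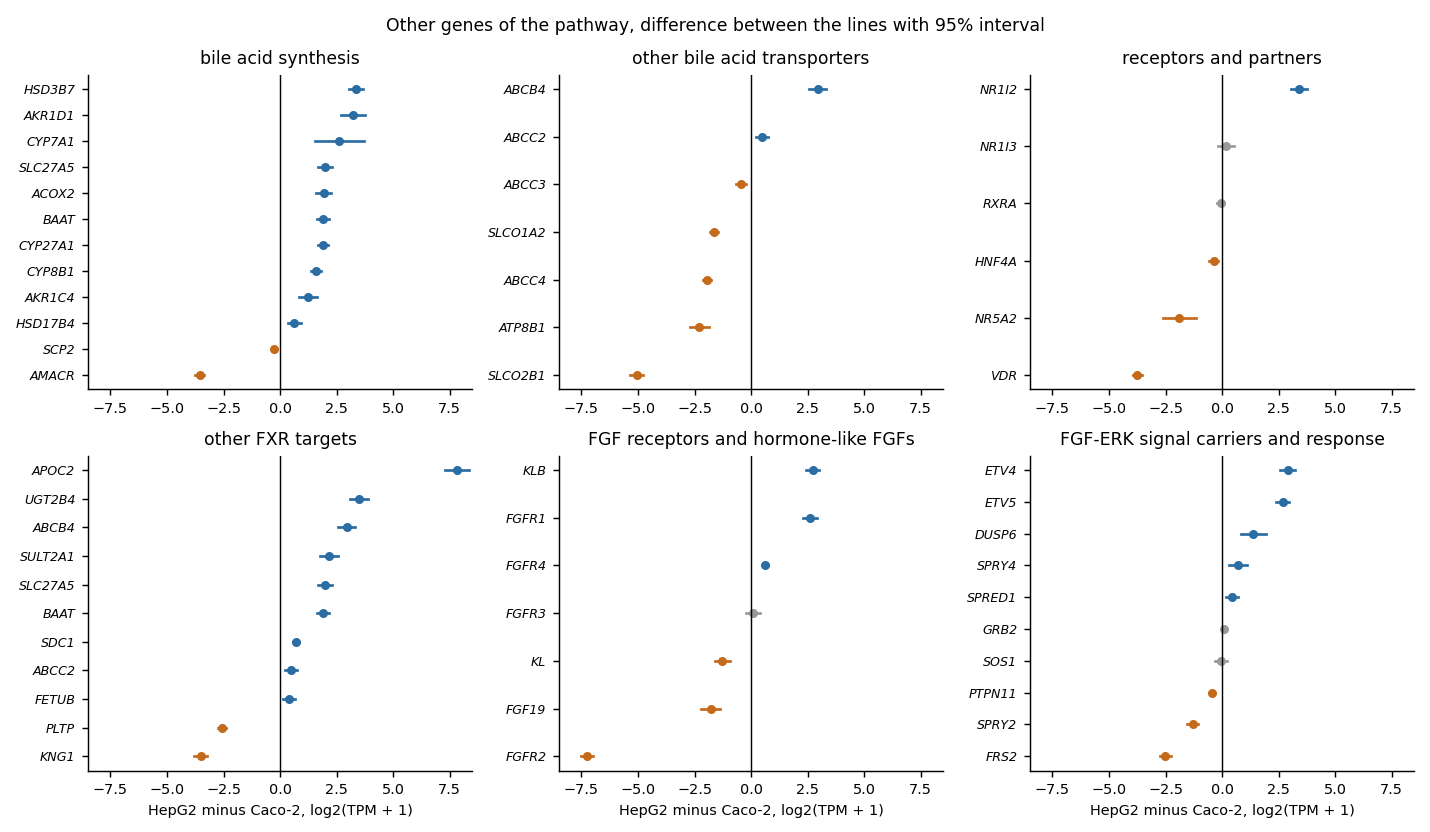
Difference of HepG2 minus Caco-2 cells in log2(TPM + 1), with 95% intervals from limma, for the tested genes of 6 lists around the axis. Blue points passed the adjusted threshold with higher levels in HepG2 cells, orange points with higher levels in Caco-2 cells, and grey points, such as RXRA and FGFR3, did not pass.

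Co-culture addressed whether contact through the circulating medium moved the axis in either line. At an adjusted p under 0.05, limma called 0 of the 8 axis genes tested in Caco-2 and 0 of the 6 in HepG2 cells, without FFAs, with FFAs, or averaged over treatments. Without FFAs 0.0199% of all Caco-2 genes and 0% of all HepG2 genes were called, and with FFAs 0% in both lines. Averaged over treatments, 0% of 15081 genes were called in Caco-2 cells and 0.0561% of 14255 in HepG2 cells, and 1 gene of the axis in each line had an unadjusted p under 0.05, against 10.5% and 12.5% of all genes.

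The Caco-2 gene was NR0B2. It was at 8.08 and 9.25 TPM in co-cultured control libraries and at 5.69, 4.49 and 2.53 TPM in mono-cultured control libraries. With FFAs it was at 7.93, 5.66 and 6.57 TPM in co-cultured and at 3.68, 3.66 and 2.14 TPM in mono-cultured libraries. Under either treatment the co-cultured libraries lay above the mono-cultured ones without overlap, as groups did in one direction or the other for 23.1% of all Caco-2 genes without FFAs and 9.32% with FFAs. Inside co-culture the NR0B2 libraries with FFAs lay below the control ones, a separation seen in either direction for 17.2% of genes. The difference was 0.93 without FFAs (SE 0.28, limma adjusted p = 0.867), 0.91 with FFAs (SE 0.25, limma adjusted p = 0.737) and 0.92 averaged (SE 0.19, limma adjusted p = 0.249), all on the log2(TPM + 1) scale. The HepG2 marker share times the HepG2 mean of NR0B2 gave 4.08 TPM in co-cultured FFAs replicate 1 and 1.62 TPM in co-cultured control replicate 1, and 0.174 to 0.476 TPM in the other 3 co-cultured libraries. Without those 2 libraries the averaged NR0B2 difference was 0.82 (limma adjusted p = 0.246), and without the 3 Caco-2 libraries numbered 3 it was 0.70 (limma adjusted p = 0.124). Over 20 alternatives it ran from 0.70 to 1.09, with a limma adjusted p from 0.0482 to 0.561.

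The HepG2 gene was KLB, which ran the other way. The values given above for KLB put the co-cultured libraries below the mono-cultured ones without overlap, both without FFAs (at most 45.9 against at least 55.8 TPM) and with FFAs (at most 69.5 against at least 74.9 TPM). Groups were apart in this way, in either direction, for 14.9% of all HepG2 genes without FFAs and 9.6% with FFAs. The difference was -0.53 without FFAs (SE 0.17, limma adjusted p = 0.603), -0.65 with FFAs (SE 0.17, limma adjusted p = 0.821) and -0.59 averaged (SE 0.12, limma adjusted p = 0.115). Without the 4 HepG2 libraries numbered 3 the averaged KLB difference was -0.61 (limma adjusted p = 0.0774). Without co-cultured FFAs replicate 3, the highest KLB library of its group, the averaged difference was called, at -0.69 with a limma adjusted p = 0.026. Over 20 alternatives the averaged KLB difference ran from -0.69 to -0.52 and its limma adjusted p from 0.0205 to 0.314. The sum of Caco-2 markers in the 6 co-cultured HepG2 libraries was 0.191% to 0.616% of the Caco-2 level, and its part in the KLB values was not tested. Hepatocyte markers moved the same way as KLB: 10 of 10 had negative averaged co-culture differences in HepG2 cells (median -0.21 against -0.02 for all genes), 3 had an unadjusted p under 0.05, and limma called 0. For the difference between lines in the co-culture effect, HepG2 minus Caco-2 cells, limma called 2 of the 10, FGA and FGB. In Caco-2 cells 9 of 10 had positive averaged co-culture differences (median 0.21 against 0.03 for all genes). There 2 had an unadjusted p under 0.05, and limma called 0. In HepG2 cells the summed level of all 10 markers was 32161 to 45556 TPM in co-cultured control and 36603 to 43305 TPM in co-cultured FFAs libraries. In the mono-cultured groups it was 42719 to 50166 and 41237 to 49566 TPM. The part of these markers in the KLB difference was not tested.

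The other genes had averaged differences with intervals across 0. Without FFAs, co-cultured and mono-cultured libraries were also apart for NR1H4 in HepG2 cells (42.3 to 47.5 against 32.4 to 41.2 TPM). In Caco-2 cells they were apart for SLC51A (1.17 and 1.51 against 1.58 to 2.29 TPM). NR1H4, below the filter in Caco-2 cells, was apart there too (0.19 and 0.23 against 0.02 to 0.18 TPM). Groups were apart in either direction for 14.9% of all HepG2 and 23.1% of all Caco-2 genes. With FFAs both genes overlapped in these lines. In Caco-2 cells FGF19 was 0.80 higher in co-culture on average (95% interval -0.01 to 1.60, limma adjusted p = 0.482), with overlapping libraries under both treatments. SLC51A, SLC51B, SLC10A1, FABP6, FGFR4 and KLB had averaged differences from -0.12 to 0.28 in Caco-2 cells. In HepG2 cells NR1H4 had a difference of 0.33, NR0B2 of -0.43, FGFR4 of 0.09, SLC51A of -0.43 and SLC51B of 0.59, each with an interval across 0. The HepG2 interval was widest for NR0B2, from -1.52 to 0.66, and ran from -1.19 to 0.33 for SLC51A and from -0.31 to 1.48 for SLC51B. A change of size 1 on the log2 scale lies inside each of these, and inside the interval of FGF19 in Caco-2 cells. The difference between the lines in the co-culture effect was -1.35 for NR0B2 (SE 0.60, limma adjusted p = 0.301) and -0.87 for KLB (SE 0.28, limma adjusted p = 0.144), and 0 of the 9 genes tested were called, against 0.533% of all genes, while these 2 had an unadjusted p under 0.05, as did 14.6% of all genes.

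FFAs addressed whether the fatty acid load moved the axis within 1 day. limma called 0 genes of the axis in either line, in mono-culture, in co-culture or averaged; in the averaged contrasts the share of all genes called was 0% in both lines. In single cultures the shares were also 0% except in co-cultured Caco-2 cells, at 0.0199%. At an unadjusted p under 0.05 there were 0 of 8 genes in Caco-2 cells and 1 of 6 in HepG2 cells, against 3.99% and 3.49% of all genes. That gene was KLB, whose mono-cultured FFAs libraries (74.9 to 94.6 TPM) lay above the mono-cultured control libraries (55.8 to 66.1 TPM), where 6.47% of HepG2 genes were apart in either direction. Its difference was 0.39 in mono-culture (SE 0.17, limma adjusted p = 1.0) and 0.32 averaged over cultures (SE 0.12, limma adjusted p = 1.0), and in co-culture the KLB libraries overlapped. FGFR4 in mono-cultured HepG2 cells was at 232, 233 and 263 TPM with FFAs and 205, 221 and 228 TPM without, with an averaged difference of 0.10 (95% interval -0.04 to 0.24).

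In HepG2 cells SLC51B had the largest averaged difference with FFAs, -0.72, with an interval from -1.62 to 0.17 that crossed 0. The other averaged differences with FFAs were -0.12 for NR1H4, 0.00 for NR0B2 and -0.04 for SLC51A. In Caco-2 cells they ran from -0.38 for FGF19 (95% interval -1.18 to 0.43) to 0.31 for FABP6 (95% interval -0.29 to 0.90). The effect of FFAs did not pass the threshold for a difference between cultures for any gene of the axis in either line, nor for a difference between lines, where 0.0182% of all genes were called and 0 of the 9 tested here had an unadjusted p under 0.05, against 2.99% of all genes.

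**Figure D5:**
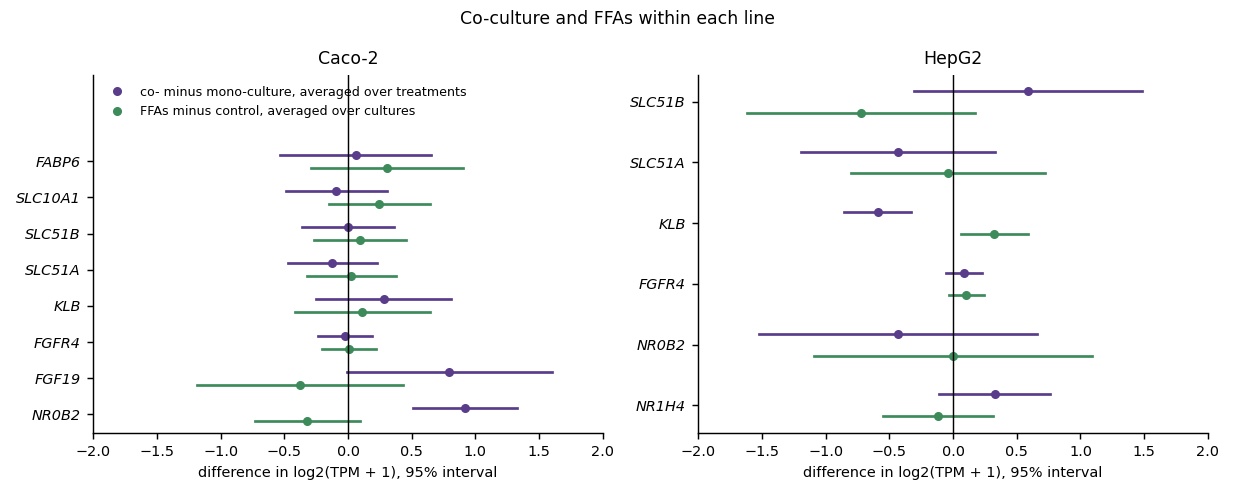
Averaged differences in log2(TPM + 1) with 95% intervals from limma, Caco-2 cells on the left (8 genes) and HepG2 cells on the right (6 genes); violet is co-culture minus mono-culture and green FFAs minus control. The intervals of NR0B2 in Caco-2 cells and KLB in HepG2 cells for co-culture, and of KLB in HepG2 cells for FFAs, exclude 0 before adjustment over all genes.

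By the criteria of the study's methods, an analysis of variance over the 4 groups of a line with an unadjusted p and a minimum spread of the group means, NR0B2 was the gene of the axis that passed in Caco-2 cells and KLB the one in HepG2 cells. These criteria were met by 3.08% of 31100 genes in Caco-2 cells and 3.56% of 29942 genes in HepG2 cells. With Benjamini-Hochberg adjustment neither passed.

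The other lists around the axis gave no call within a line either. In the 14 contrasts within lines, limma called 0 genes of bile acid synthesis, 0 of the other transporters, 0 of the partners and receptors, 0 of the further FXR targets and 0 of the FGF lists, and 0 to 4 genes of a list had an unadjusted p under 0.05 in a contrast. The 4 were among 8 further FXR targets tested in Caco-2 cells under averaged co-culture, where 10.5% of all genes had such a p: APOC2 (1.33), UGT2B4 (0.53), SULT2A1 (0.41) and KNG1 (0.33), with limma adjusted p from 0.308 to 0.455. These 4 were named after their values were seen, and the part of HepG2 RNA in them was not tested. The smallest adjusted p was 0.0978, for AMACR in HepG2 cells under co-culture.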

How the data were processed

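mRNA-seq values of 23 libraries were used, grouped by line, culture and treatment from the labels. The authors deposited 1 table of TPM per library. Per their methods and processing notes, rRNA, tRNA and mitochondrial reads were removed with Bowtie2 2.1.0, STAR 2.7.1a aligned what was left to GRCh38, and RSEM 1.3.0 gave TPM. These steps could not be varied, depth is unknown, and precision rests on the 2 or 3 libraries of a group.

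TPM were analysed as log2(TPM + 1), which understates changes of low genes, with limma 3.58.1 (eBayes with a trend; R 4.3.3) for genes whose mean reached 1 TPM in any group, and p-values were adjusted over all tested genes by Benjamini-Hochberg (threshold 0.05). The lines were compared over all 8 groups (16495 genes), and contrasts within a line over its 4 groups (15081 genes in Caco-2, 14255 in HepG2). All 10 genes were named; differences within a line were given for those with an unadjusted p under 0.05, and others as ranges, with some values beside them chosen after they were seen. In each list, up to 4 genes per direction with the smallest adjusted p were named, besides CYP7A1, ABCB11, RXRA, GPBAR1, KL and FGF21. The members and lists were chosen with earlier results of these data known. Line markers reached 50 TPM in their own line and stayed at or under 1 TPM in the other, in all mono-cultured control libraries. Alternatives were the replicate block, a pseudocount of 0.1, other scalings and filters, an analysis of variance, limma without the trend, and libraries left out. A gene of a list is not reported here. The fits were tested on simulated data. Python 3.11.15 and GENCODE v44 were used.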

Additional observations from a re-analysis of the deposited data

How the results depend on the processing

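The line differences of NR0B2, FGFR4, KLB, SLC51A and SLC51B, which passed the filter in both lines, kept their direction and call under every setting run; so did those of NR1H4, FGF19, SLC10A1 and FABP6 where tested, whose direction the filter had set. Their size depended on the pseudocount for genes near 0 in a line: with 0.1 in place of 1, NR1H4 went to 6.89, SLC10A1 to -5.57, FGF19 to -3.77 and FABP6 to -4.42 on the log2 scale. A filter at 5 TPM left FABP6 untested. Libraries numbered 3, and the Caco-2 libraries with most HepG2 marker signal, were left out, as alternatives chosen after the data had been seen; the number of axis genes called did not change in any contrast, whereas the numbers over all genes did.

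Replicate numbers did not meet the check for pairing. Deviations from group means of same-numbered libraries correlated at 0.028 to 0.601 in HepG2 cells (median 0.305) and -0.093 to 0.312 in Caco-2 cells (median 0.088), and 10 of 12 HepG2 and 7 of 11 Caco-2 libraries correlated best with their own number, a hint from the data and not the design. With the replicate block, limma called 1 axis gene for averaged co-culture in Caco-2 cells (NR0B2, 0.84, adjusted p = 0.0482). In HepG2 cells it called 2 (KLB, -0.59, adjusted p = 0.0205, and NR0B2, -0.43, adjusted p = 0.0409). For the difference between lines in the co-culture effect it called 3 (NR0B2, KLB and FGF19). Calls over all genes rose too, from 0 to 28 higher and 32 lower of 15081 in Caco-2 cells. Between lines they rose from 33 higher and 55 lower to 367 and 468 of 16495. The number over all HepG2 genes with the block is not given here, so the 2 HepG2 calls have no share beside them. Some uncalled genes had averaged intervals that no longer crossed 0. For co-culture these were FGF19 in Caco-2 cells (0.997, limma adjusted p = 0.0759), and SLC51A (-0.43, adjusted p = 0.111) and SLC51B (0.59, adjusted p = 0.077) in HepG2 cells. For FFAs they were FGF19 in Caco-2 cells (-0.58, limma adjusted p = 0.501) and SLC51B in HepG2 cells (-0.72, adjusted p = 0.661). The block counted co-cultured control Caco-2 replicate 2 with number 2. Its deviations correlated at -0.093 to -0.008 with libraries numbered 2 and at 0.180 to 0.284 with those numbered 3. This library had the highest FGF19 level, 7.87 TPM, so the FGF19 results with the block depend on that label. With the block the analysis of variance was met by 2 genes in Caco-2 and 3 in HepG2 cells, and with Benjamini-Hochberg adjustment by 0 in each. The share of all genes that met it with the block was not counted. With single libraries left out, calls for co-culture in HepG2 cells ranged from 0 to 1, and the analysis of variance was met by 0 to 2 genes in Caco-2 cells and 1 to 2 in HepG2 cells; the lowest Caco-2 count came without co-cultured control replicate 1 and the highest without co-cultured FFAs replicate 3, and the highest HepG2 count without co-cultured FFAs replicate 1. The cause was not tested. Of the other counts compared, 442 moved by at most 1.5 times. Depth, which TPM do not keep, limits what can be said of genes listed at 0.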
